A study of Mus musculus with 8 samples.

Results

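Hepatic amino acid transporters are described here as 10 genes chosen by name: Slc38a2, Slc38a3, Slc38a4, Slc7a2, Slc3a2, Slc7a5, Slc43a1, Slc16a10, Slc1a4 and Slc6a12. All 10 were present among the 22565 protein-coding genes of the expression table, which holds 369 genes whose symbol starts with Slc. The livers came from male C57BL/6J mice aged 10 weeks. One group was injected intraperitoneally once a day with dexamethasone, a synthetic glucocorticoid (1.0 mg/kg, 14 days), and the other received saline as vehicle on the same schedule. Each group held 4 libraries of RNA depleted of ribosomal RNA, named here vehicle 1 to 4 and dexamethasone 1 to 4. The labels number the libraries but do not say that each came from its own mouse, so p-values measure only the spread between these libraries, which may be technical. Whole liver was sequenced, so fewer cells of a type and less RNA per cell cannot be told apart.

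Amino acids enter and leave hepatocytes through carriers that differ in substrate and in coupling to sodium. The liver takes up alanine and glutamine from the portal and systemic blood and turns their nitrogen into urea and their carbon into glucose, and it releases other amino acids. The Slc38 family carries small neutral amino acids and glutamine, Slc7a2 carries arginine and other cationic amino acids, and Slc16a10, Slc43a1 and the dimer of Slc3a2 with Slc7a5 carry aromatic, branched-chain and other large neutral amino acids. Slc1a4 exchanges alanine, serine and cysteine, and Slc6a12 carries betaine, an osmolyte and methyl donor.

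Of the 9 transporters that could be tested, Slc38a3 and Slc38a4, the pair with the highest levels, fell with dexamethasone, and 0 rose. Slc38a3 also fell after the libraries were scaled to each other. Slc38a4 did not pass then, although it did under some other scalings given below. Slc38a2, of the same family, did not pass in either set of values. Its level relative to Slc38a3 was higher in each dexamethasone library than in each vehicle library, a ratio that also holds the fall of Slc38a3. The count of 2 lower genes among 9 compares with 7.85% of all 10221 genes tested called lower and 1.37% called higher (limma, Benjamini-Hochberg adjusted p under 0.05). Scaling changed this to 1 lower and 0 higher among the 9, against 3.06% lower and 3.35% higher among all genes. At an unadjusted limma p under 0.05, 5 of the 9 were lower and 0 higher as deposited. Of all 10221 genes, 2474 were lower and 325 higher there (27.4% in either direction). After scaling 3 of the 9 were lower and 1 was higher, against 1046 lower and 1017 higher of all genes (20.2% in either direction). The median log2 fold change of the 9 was -0.61 as deposited and -0.27 after scaling, and that of all genes tested was -0.28 and 0.00.

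Values are FPKM as the authors deposited them, fragments relative to transcript length and library total, with the lengths and totals used not stated. FPKM per scaled count of the same gene differed between libraries, from 1.15-fold for Slc1a4 to 1.49-fold for Slc38a3, 1.58-fold for Slc6a12, 3.54-fold for Slc43a1 and 12.9-fold for Slc7a5, so the 2 kinds of column do not differ by 1 factor per gene. Whether the transcript length used for a gene differed between libraries was not tested. Log2 fold changes are on log2(FPKM + 1), dexamethasone minus vehicle, with their SE, and understate the change of low genes. The median shift of -0.28 is shared by most genes, so each change of a transporter is also given after scaling, in which the median ratio of a library's genes to their geometric means over the 8 libraries is divided out. The authors' scaled fragment counts rose in steps, from which 1361293 to 3360083 fragments per library were inferred on protein-coding genes. A single gene, Lars2, held 14.5% to 25.3% of them with vehicle and 28.4% to 51.1% with dexamethasone, so 665936 to 1581776 fragments with dexamethasone and 1636129 to 2571861 with vehicle lay on all other genes. Dexamethasone 4 had the highest Lars2 share and the fewest fragments. It was also the lowest of the 8 libraries for 7 of the 9 transporters that had 1 lowest library as deposited, and for 4 of 9 after scaling. The factor divided out by the scaling was 0.677 for dexamethasone 4, the smallest in a range up to 1.27, so low deposited values there were not particular to the transporters. The share of all genes that were lowest in it was not computed. The part of the Lars2 share in the results was not tested. Fkbp5, a well known target of the glucocorticoid receptor, rose from 6.87 ± 1.20 to 59.7 ± 8.73 FPKM (SD, n = 4, log2 fold change 2.95 ± 0.21, limma adjusted p = 2.4e-06).

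The cell types of the tissue were read from marker genes. Hepatocyte markers (5 of 6 in the table) summed to 14916 to 21599.5 FPKM with vehicle and 8515 to 15855 with dexamethasone, and 0 of the 5 passed as deposited (limma, 0 at an unadjusted p under 0.05), while Cps1 was higher after scaling. Kupffer cell and macrophage markers summed to 19.6 to 37.9 FPKM with vehicle and 15.1 to 22.1 with dexamethasone, and 0 of 7 tested passed (limma, 1 at an unadjusted p under 0.05). Of 6 sinusoidal endothelial markers Lyve1 rose and Kdr fell as deposited, and Lyve1 and Oit3 were higher and 0 lower after scaling, with sums of 33.6 to 41.8 and 27.5 to 51.1 FPKM. Stellate cell sums were 25.7 to 30.7 and 20.6 to 34.9 FPKM, and cholangiocyte sums were 19.0 to 55.8 and 12.8 to 30.1 FPKM. B cell sums were 0.578 to 1.02 FPKM with vehicle and 0 with dexamethasone, and neutrophil sums were 0 to 1.41 and 0 FPKM. T and NK cell sums were 0 to 0.964 and 0 to 0.467 FPKM. None of the markers of these 3 cell types was high enough to test, and Cd3d, Ly6g, Mpo and Retnlg were listed at 0 in all libraries. Cycling cell markers summed to at most 4.45 FPKM. Whether such cells had a part in the values of the transporters was not tested.

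The 10 genes spanned a wide range of levels. With vehicle the order by mean FPKM was Slc38a3 (276 ± 41.6), Slc38a4 (222 ± 37.2), Slc7a2 (146 ± 29.8), Slc38a2 (27.8 ± 4.86), Slc6a12 (18.5 ± 1.14), Slc16a10 (10.6 ± 2.53), Slc3a2 (7.65 ± 2.78), Slc43a1 (2.53 ± 2.26), Slc7a5 (1.52 ± 1.46) and Slc1a4 (0.316 ± 0.171), each with its SD over 4 libraries. The ranges of Slc38a3 and Slc38a4 overlapped between libraries, although Slc38a3 was the higher in each of the 4 vehicle libraries. The ranges of Slc38a4, Slc7a2, Slc38a2, Slc6a12 and Slc16a10 were separate from one to the next with vehicle, and those of neighbours from Slc16a10 down to Slc1a4 overlapped. With dexamethasone Slc38a3 (124 ± 35.2 FPKM) and Slc38a4 (125 ± 36.0 FPKM) were level, each the higher in 2 of the 4 libraries. The SD over vehicle libraries was 6.16% of the mean for Slc6a12, 15.1% for Slc38a3 and 95.7% for Slc7a5, so the lowest genes varied most among libraries of 1 group.

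**Figure D1:**
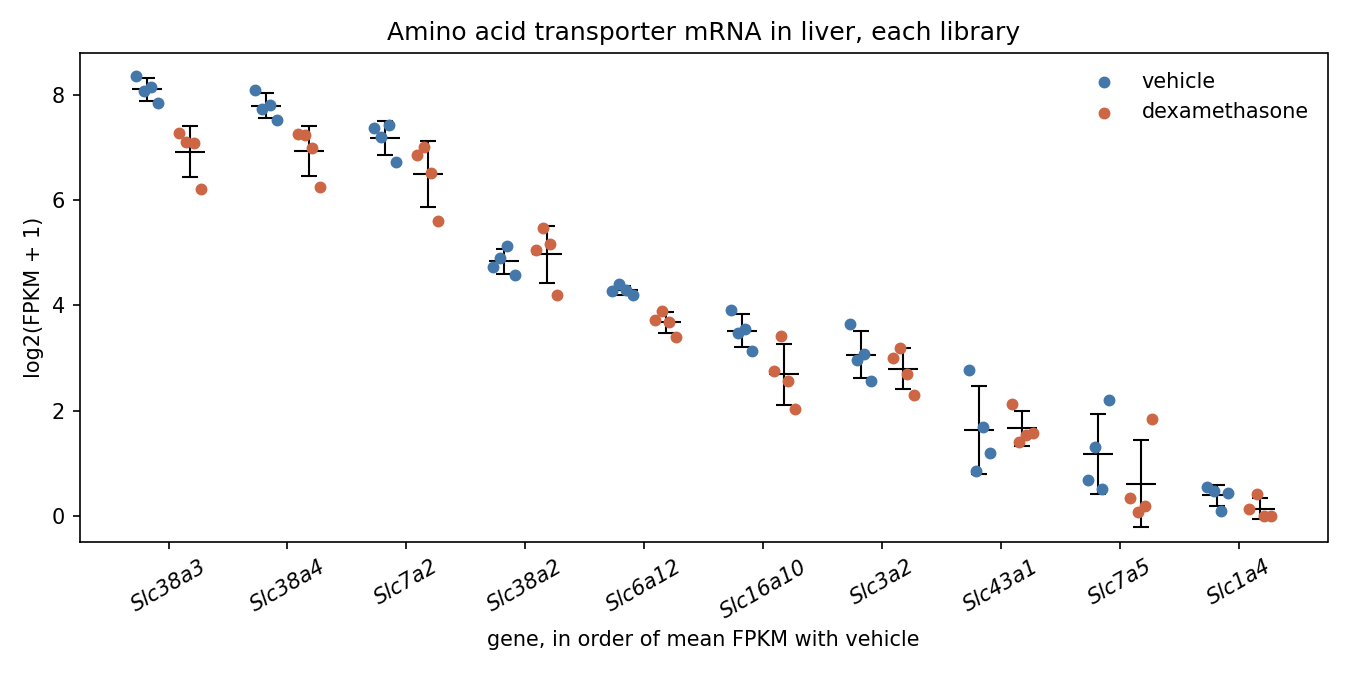
Level of each transporter as log2(FPKM + 1) in the 4 vehicle libraries (blue) and the 4 dexamethasone libraries (orange), in order of mean FPKM with vehicle; black bars are the mean and SD of the plotted values. The groups of Slc38a3, Slc38a4 and Slc6a12 are separate, and those of the other 7 genes overlap.

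Slc38a3 encodes SNAT3, a system N carrier that exchanges glutamine, histidine and asparagine with sodium against protons. The gene (ENSMUSG00000010064) lies on chromosome 9, 107650634 to 107669530, minus strand, in the GRCm38 mouse genome with GENCODE M21 annotation, as do the positions below. Its level was 328, 266, 281 and 227 FPKM in vehicle 1 to 4 and 153, 136, 135 and 73.1 FPKM in dexamethasone 1 to 4. Each dexamethasone library lay below each vehicle library, and dexamethasone 4 was the lowest. The mean with dexamethasone was 0.451 times that with vehicle, a log2 fold change of -1.18 ± 0.24 (limma adjusted p = 0.011). After scaling the libraries held 265, 209, 235 and 227 with vehicle and 161, 131, 152 and 108 with dexamethasone, and the groups stayed apart, with a log2 fold change of -0.77 ± 0.16 (limma adjusted p = 0.013). Slc38a3 passed in all 8 fits that left out 1 library, as deposited (-1.30 to -0.95) and after scaling (-0.85 to -0.66). Its value rested on 499 to 5097 inferred fragments per library. Of all genes tested, 2.51% had a lower log2 fold change as deposited and 3.58% after scaling.

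Slc38a4 encodes SNAT4, a system A carrier of alanine and other small neutral amino acids that is abundant in liver. The gene (ENSMUSG00000022464, chromosome 15, 96994820 to 97055956, minus strand) had 272, 212, 222 and 182 FPKM in vehicle 1 to 4 and 152, 150, 125 and 74.7 FPKM in dexamethasone 1 to 4. The groups did not overlap, which held for 3 of the 10 transporters, all lower (Slc38a3, Slc38a4 and Slc6a12), as deposited and after scaling. Of all genes tested, 16.2% were lower and 2.18% higher without overlap as deposited, and 7.10% and 7.32% after scaling. Slc38a4 fell by 0.86 on the log2 scale (log2 fold change -0.86 ± 0.24, limma adjusted p = 0.046). After scaling the value was -0.45 ± 0.15 (limma adjusted p = 0.12), and it passed in 0 of 8 scaled fits without 1 library. Divided by the share of fragments outside Lars2, it passed (-0.57 ± 0.15, limma adjusted p = 0.039), where 415 of 10221 genes were lower. In the authors' count columns with median-ratio scaling, added after seeing the data, Slc38a4 passed narrowly (-0.45 ± 0.14, limma adjusted p = 0.049). There 5.26% of all genes were called lower. As deposited the call was lost without vehicle 1, 2, 3 or 4 or without dexamethasone 3 (limma adjusted p from 0.053 to 0.12).

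Slc38a2 encodes SNAT2, a system A carrier found in most tissues whose gene is known to respond to amino acid shortage. It lies on the same chromosome as Slc38a4 (ENSMUSG00000022462, chromosome 15, 96687392 to 96699730, minus strand), 295 kb away with 0 other protein-coding genes between them in GENCODE M21. Its level was 25.5, 28.9, 34.0 and 22.7 FPKM in vehicle 1 to 4 and 32.0, 43.2, 34.7 and 17.2 FPKM in dexamethasone 1 to 4. The groups overlapped, with dexamethasone 2 the highest and dexamethasone 4 the lowest of the 8. The log2 fold change was 0.13 ± 0.27 (limma adjusted p = 0.78) as deposited and 0.53 ± 0.18 (limma adjusted p = 0.12) after scaling. In the authors' count columns with the same kind of scaling, an alternative added after seeing the data, it was 0.70 ± 0.15 and passed (limma adjusted p = 0.0037), where 5.32% of all genes were called higher and 5.26% lower, and without dexamethasone 4 it passed after scaling (0.67, limma adjusted p = 0.032). Without dexamethasone 2 the deposited value was -0.04.

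The 250 bases before the start of these chromosome 15 neighbours are printed because the genes share a family and a locus and their values differed in sign. They are RefSeq sequences of GRCm38.p6, 5′ to 3′ on the minus strand, chr15:96699729-96699978 for Slc38a2 and chr15:97055957-97056206 for Slc38a4, the start farthest upstream of 3 listed. Capitals mark TGGAAA, the core of the tonicity element.
Slc38a2: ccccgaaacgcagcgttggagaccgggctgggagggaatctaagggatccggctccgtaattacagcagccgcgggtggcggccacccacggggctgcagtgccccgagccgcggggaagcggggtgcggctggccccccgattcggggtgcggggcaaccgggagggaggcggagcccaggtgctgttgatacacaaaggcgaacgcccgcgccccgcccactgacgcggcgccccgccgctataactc
Slc38a4: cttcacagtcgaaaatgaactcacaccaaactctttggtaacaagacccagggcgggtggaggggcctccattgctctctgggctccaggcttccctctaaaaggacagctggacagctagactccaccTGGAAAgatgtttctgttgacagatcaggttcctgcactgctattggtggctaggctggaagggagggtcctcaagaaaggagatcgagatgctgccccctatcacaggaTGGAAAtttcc
The G and C content of these stretches was 72% for Slc38a2 and 52.8% for Slc38a4. Letters were searched on both strands in the stretches of the 7 transporters that had an entry, taking the start farthest upstream. For Slc3a2 and Slc6a12 the bases just after that start were not found in a GENCODE M21 transcript of the gene. The Slc3a2 stretch (chr19:8713898-8714147) lies inside the annotated gene, so the starts of these genes are uncertain. AGAACA, a glucocorticoid receptor half-site, was in 0 of the 7 and in 16.1% of all 32851 such stretches. TGATGNAA, the core of the amino acid response element, was in 0 of the 7 and in 3.45% of all. Bases outside these stretches, introns among them, were not searched, so a site elsewhere in a gene would be missed. TGGAAA was present 2 times in Slc38a4, at 121 and 11 bases before the start, 1 time in Slc6a12, and in 18.6% of all stretches. No entry was listed for Slc38a3, Slc7a2 and Slc7a5.

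Ratios between transporters within a library do not change when the library is scaled. The ratio of Slc38a2 to Slc38a3 was 0.0777, 0.109, 0.121 and 0.0998 in vehicle 1 to 4 and 0.209, 0.317, 0.256 and 0.235 in dexamethasone 1 to 4. The groups did not overlap, and the mean ratio was 2.50 times as high with dexamethasone. The ratio of Slc38a4 to Slc38a3 was 0.789 to 0.828 with vehicle and 0.926 to 1.10 with dexamethasone. The ratio of Slc7a2 to Slc38a3 was 0.458 to 0.604 with vehicle and 0.649 to 0.939 with dexamethasone. Slc38a3 thus stood lower against each of these 3 genes in every dexamethasone library. The 3 ratios share Slc38a3 as denominator, so each holds its fall and they are not separate results. How many of all genes had a ratio to Slc38a3 that separated the groups was not computed. These ratios were formed after the values were known and were given no test. As a share of the summed FPKM of the 10 transporters, Slc38a3 took 38.7 ± 0.890% with vehicle and 31.0 ± 2.27% with dexamethasone (SD, n = 4), Slc38a2 took 3.93 ± 0.646% and 7.83 ± 0.992%, and Slc38a4 took 31.1 ± 1.17% and 31.2 ± 0.739%. The summed FPKM itself was 713 ± 112 with vehicle and 404 ± 119 with dexamethasone.

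**Figure D2:**
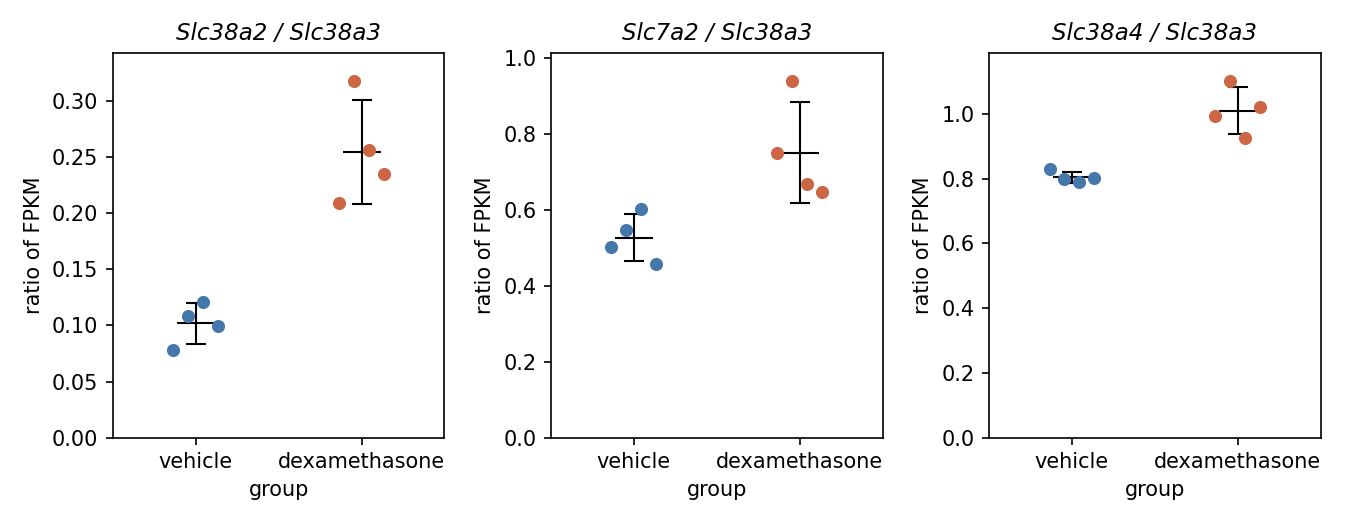
Ratio of FPKM of Slc38a2, Slc7a2 and Slc38a4 to that of Slc38a3 in each library (points; blue vehicle, orange dexamethasone), with the mean and SD of 4 libraries in black and each axis starting at 0. All 4 dexamethasone libraries lie above all 4 vehicle libraries in each panel, and the panels share the denominator Slc38a3.

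Slc7a2 encodes CAT2, which brings arginine, lysine and ornithine into hepatocytes. The gene (ENSMUSG00000031596, chromosome 8, 40862396 to 40922308, plus strand) had 165, 145, 170 and 104 FPKM in vehicle 1 to 4 and 115, 128, 90.4 and 47.4 FPKM in dexamethasone 1 to 4. The groups overlapped, since vehicle 4 lay below dexamethasone 1 and 2. It did not pass, with a log2 fold change of -0.68 ± 0.29 (limma adjusted p = 0.15) as deposited and -0.27 ± 0.19 (limma adjusted p = 0.48) after scaling. The lincRNA Gm26584 overlaps it on the opposite strand, and whether counting used the strand is not given in the sources used here. Slc7a1, the related cationic carrier of most other tissues, was at most 0.941 FPKM in any library and was not tested.

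Slc16a10 encodes TAT1, a carrier of tyrosine, tryptophan and phenylalanine that needs no sodium. The gene (ENSMUSG00000019838, chromosome 10, 40033532 to 40142258, minus strand) had 13.9, 10.2, 10.7 and 7.79 FPKM in vehicle 1 to 4 and 5.72, 9.65, 4.90 and 3.07 FPKM in dexamethasone 1 to 4. The snoRNA gene Gm25613 overlaps it on the opposite strand. Dexamethasone 2 lay among the vehicle libraries and the other 3 below all of them. It did not pass (log2 fold change -0.83 ± 0.29, limma adjusted p = 0.084, and -0.47 ± 0.21, limma adjusted p = 0.24, after scaling), but without dexamethasone 2 it did as deposited (-1.07, limma adjusted p = 0.025). Slc43a1 encodes LAT3, a carrier of branched-chain amino acids and phenylalanine (ENSMUSG00000027075, chromosome 2, 84838850 to 84863594, plus strand). Its level was 5.81, 0.797, 2.20 and 1.30 FPKM in vehicle 1 to 4 and 3.38, 1.63, 1.90 and 1.96 FPKM in dexamethasone 1 to 4, so vehicle 1 and vehicle 2 held the highest and the lowest value of all. The log2 fold change was 0.04 ± 0.36 (limma adjusted p = 0.96) as deposited and 0.31 ± 0.35 (limma adjusted p = 0.68) after scaling, on 5 to 39 inferred fragments per library.

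Slc3a2 encodes the heavy chain CD98, which carries light chains of the Slc7 family, Slc7a5 (LAT1) among them, to the cell surface. Slc3a2 (ENSMUSG00000010095, chromosome 19, 8706882 to 8723369, minus strand) had 11.5, 6.74, 7.46 and 4.91 FPKM in vehicle 1 to 4 and 7.03, 8.15, 5.44 and 3.90 FPKM in dexamethasone 1 to 4. The groups overlapped, and the log2 fold change of -0.26 ± 0.27 (limma adjusted p = 0.55) as deposited was 0.09 ± 0.20 (limma adjusted p = 0.86) after scaling, with the other sign. Slc7a5 (ENSMUSG00000040010, chromosome 8, 121881150 to 121907694, minus strand) had 0.595, 1.48, 0.423 and 3.60 FPKM in vehicle 1 to 4 and 0.265, 0.0514, 0.132 and 2.57 FPKM in dexamethasone 1 to 4. Vehicle 4 and dexamethasone 4 stood above the rest. Behind these values lay 11, 9, 11 and 12 inferred fragments with vehicle and 5, 1, 2 and 3 with dexamethasone, so the high FPKM of dexamethasone 4 rested on 3 fragments. Slc7a5 did not pass as deposited (-0.57 ± 0.42, limma adjusted p = 0.40) or after scaling (-0.36 ± 0.50, limma adjusted p = 0.76). In the count columns it was lower (-1.54 ± 0.52, limma adjusted p = 0.043), where 14.4% of all genes were called lower and 1.59% higher, and it did not pass after those were scaled (-1.12 ± 0.51, limma adjusted p = 0.19). The locus that the table gives for Slc7a5 spans 4435.4 kb and takes in 73 other protein-coding genes, against 26.5 kb in the annotation, and the protein-coding gene Gm20388 overlaps it on the opposite strand, so its value is uncertain. The 6 light chains Slc7a5, Slc7a6, Slc7a7, Slc7a8, Slc7a10 and Slc7a11 summed to 0.696 to 4.10 FPKM with vehicle and 0.716 to 3.71 with dexamethasone, and Slc3a2 was 1.05 to 10.7 times their sum in every library.

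Slc6a12 encodes BGT1, a carrier of betaine and GABA. The gene (ENSMUSG00000030109, chromosome 6, 121343076 to 121365775, plus strand) had 18.3, 20.1, 18.5 and 17.3 FPKM in vehicle 1 to 4 and 12.2, 13.9, 11.8 and 9.59 FPKM in dexamethasone 1 to 4. The groups were separate as deposited, and after scaling they were separate too, at 14.7 to 17.3 with vehicle and 12.8 to 14.2 with dexamethasone. The log2 fold change did not pass (-0.61 ± 0.19, limma adjusted p = 0.061, and -0.23 ± 0.13, limma adjusted p = 0.39, after scaling). Slc1a4 encodes ASCT1 (ENSMUSG00000020142, chromosome 11, 20302180 to 20332713, minus strand). It had 0.455, 0.390, 0.0686 and 0.349 FPKM in vehicle 1 to 4 and 0.0927, 0.337, 0 and 0 FPKM in dexamethasone 1 to 4, stayed under the filter of 0.5 FPKM in at least 4 libraries, and was not tested. These values came from 9, 8, 2 and 7 inferred fragments with vehicle and 2, 7, 0 and 0 with dexamethasone, and its locus in the table (553.0 kb) takes in 4 other protein-coding genes.

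**Figure D3:**
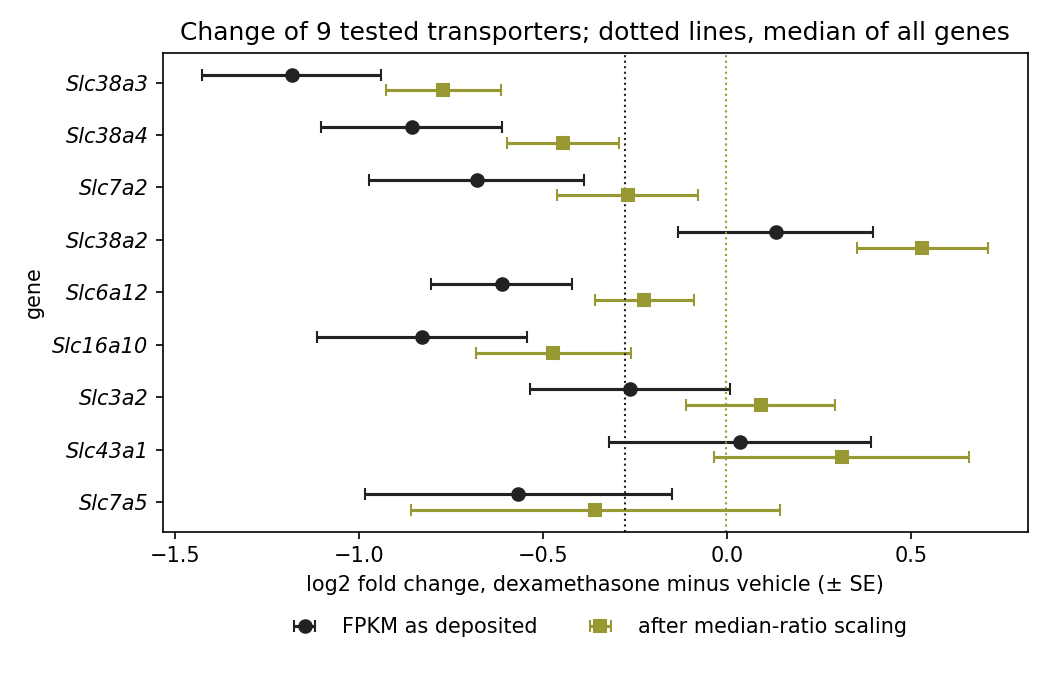
Log2 fold change (dexamethasone minus vehicle, with SE, n = 4 per group) of the 9 tested transporters from FPKM as deposited (black circles) and after median-ratio scaling (olive squares); dotted lines are the median of all genes tested in each. Slc38a3 lies farthest below both lines, and Slc38a2, Slc43a1 and, by a smaller distance, Slc3a2 lie above them.

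By mean absolute difference of centred log2(FPKM + 1) over the 8 libraries, the genes most like Slc38a3 among 8646 compared were Fads2, a fatty acid desaturase (difference 0.0809), and F5, coagulation factor V (0.0860). Those most like Slc38a4 were Sdc2, a heparan sulfate proteoglycan (0.0470), and Hspa9, a mitochondrial chaperone (0.0637). Fads2 went from 97.3 ± 19.0 to 41.2 ± 11.8 FPKM and Sdc2 from 25.3 ± 3.24 to 13.8 ± 4.71 FPKM (SD, n = 4).

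Other amino acid carriers were compared with the 10. Of 29 other plasma membrane carriers 22 were too low to test and 11 were listed at 0 in all 8 libraries, among the latter the cystine carrier gene Slc7a11. Of the 7 tested, 1 fell and 0 rose as deposited (limma, 1 higher and 1 lower at an unadjusted p under 0.05), with a median log2 fold change of 0.01, or 0.33 after scaling. Of all genes tested, 7.85% were called lower and 1.37% higher as deposited. Slc6a6, the taurine carrier, fell from 6.03 ± 1.16 to 2.04 ± 0.331 FPKM (SD, n = 4, log2 fold change -1.20 ± 0.21, limma adjusted p = 0.0046, and -0.88 ± 0.17, limma adjusted p = 0.0092, after scaling). Slc6a9, the glycine carrier GLYT1, chosen after its values were seen, did not pass as deposited and did after scaling (0.69 ± 0.25, limma adjusted p = 0.10, and 1.07 ± 0.19, limma adjusted p = 0.0069). Slc1a2, a glutamate carrier, went from 54.0 ± 12.0 to 71.9 ± 18.7 FPKM and did not pass (limma adjusted p = 0.28, and 0.060 after scaling). Of 8 mitochondrial amino acid carriers tested 0 passed as deposited or after scaling (limma, 0 and 3 at an unadjusted p under 0.05, the 3 higher). In the scaled count columns 3 passed, all higher, where 5.32% of all genes did. Slc25a44 had the smallest p as deposited (-0.37 ± 0.21, limma adjusted p = 0.28), and after scaling it was at -0.04 ± 0.19 (limma adjusted p = 0.93). After scaling 7 of the 8 values were positive, where 5075 of all 10221 were. Of 7 lysosomal carriers 0 passed as deposited or after scaling (limma, 3 and 0 at an unadjusted p under 0.05), and 1 passed as lower in the scaled count columns, where 5.26% of all genes did. All 7 values were negative as deposited, where 8013 of all 10221 were, and after scaling, where 5146 of 10221 were. The histidine and peptide carrier Slc15a4 had the smallest p as deposited (-0.69 ± 0.25, limma adjusted p = 0.095). Among all 197 tested genes whose symbol starts with Slc, 2 rose and 28 fell as deposited, and 8 rose and 12 fell after scaling. The shares of all genes were 1.37% higher and 7.85% lower as deposited, and 3.35% and 3.06% after scaling.

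Of 16 listed enzymes that make or use the carried substrates or their products, 3 rose and 1 fell as deposited. Of all genes tested, 1.37% were called higher and 7.85% lower. After scaling 7 rose and 0 fell, against 3.35% higher and 3.06% lower of all genes. Tat, which opens tyrosine breakdown, rose from 179 ± 71.6 to 442 ± 80.8 FPKM (SD, n = 4, log2 fold change 1.39 ± 0.30, limma adjusted p = 0.013, and 0.0011 after scaling), and Tdo2, which opens tryptophan breakdown, rose by 0.84 ± 0.21 (limma adjusted p = 0.026, and 1.25 ± 0.14 after scaling). Slc16a10, the carrier of both substrates, did not pass (limma adjusted p = 0.084, and 0.24 after scaling). Bhmt, which uses betaine, rose by 1.04 ± 0.26 (limma adjusted p = 0.025, and 1.44 ± 0.19 after scaling), and the betaine carrier Slc6a12 did not pass (limma adjusted p = 0.061, and 0.39 after scaling). Oat, which uses ornithine, fell (-1.02 ± 0.28, limma adjusted p = 0.041, and 0.13 after scaling). Glul and Gls2, which make and break glutamine, the substrate of Slc38a3, did not pass as deposited (0.06 ± 0.21, limma adjusted p = 0.88, and -0.49 ± 0.30, limma adjusted p = 0.31) or after scaling (0.47 ± 0.15, limma adjusted p = 0.094, and -0.09 ± 0.25, limma adjusted p = 0.88). Gpt2 (0.90 ± 0.16, limma adjusted p = 0.0077), Sdsl (1.09 ± 0.25, limma adjusted p = 0.024) and Bckdha (0.70 ± 0.16, limma adjusted p = 0.022) were higher after scaling only, as was Arg1, given below.

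**Figure D4:**
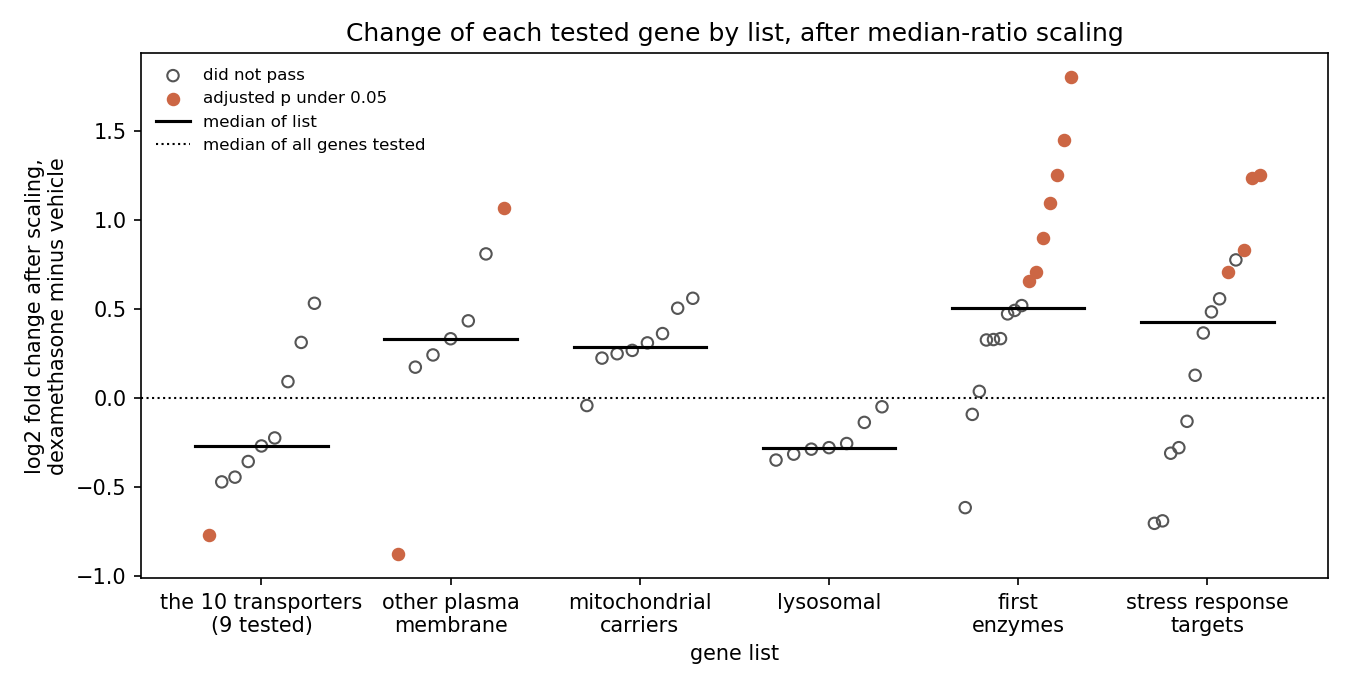
Log2 fold change after median-ratio scaling (dexamethasone minus vehicle) of each tested gene in 6 lists, with filled points at an adjusted p under 0.05, a black line at each list's median and a dotted line at the median of all genes tested. The median is -0.27 for the transporters described here, 0.33 for other plasma membrane carriers, 0.29 for mitochondrial carriers, -0.28 for lysosomal carriers, 0.50 for the enzymes and 0.42 for stress response targets.

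The integrated stress response includes Slc38a2 and Slc7a5 among its targets in other cells. Of 14 other targets tested, 1 rose and 2 fell as deposited, and 4 rose and 0 fell after scaling. Of all genes tested, 1.37% were called higher and 7.85% lower as deposited, and 3.35% and 3.06% after scaling. The same shares apply to the other lists below. Ddit3, a stress-induced transcription factor, rose (0.99 ± 0.28, limma adjusted p = 0.045, and 1.25 ± 0.28, limma adjusted p = 0.024, after scaling). Vegfa (-1.10 ± 0.28, limma adjusted p = 0.027) and Gadd45a (-0.84 ± 0.23, limma adjusted p = 0.038) fell as deposited. Neither passed after scaling (-0.69 ± 0.19, limma adjusted p = 0.056, and -0.70 ± 0.23, limma adjusted p = 0.11). Atf5, Eif4ebp1 and Cebpb were higher after scaling only. Atf4 itself did not pass (-0.50 ± 0.25, limma adjusted p = 0.21). Of 21 tested genes of amino acid sensing and mTORC1, Ddit4, an inhibitor of mTORC1, rose (3.26 ± 0.27, limma adjusted p = 1.5e-05, and 3.55 ± 0.22 after scaling). Nprl3 (-1.05 ± 0.26, limma adjusted p = 0.025) and Fnip1 (-0.84 ± 0.23, limma adjusted p = 0.041), which act on the Rag GTPase branch, fell as deposited. After scaling both stayed negative and did not pass (-0.72 ± 0.22, limma adjusted p = 0.079, and -0.51 ± 0.17, limma adjusted p = 0.11). Of 4 tested tonicity-responsive genes Slc6a6 alone passed, and Nfat5, the factor that binds tonicity elements, did not (limma adjusted p = 0.79). Of 9 pericentral genes Oat and the Wnt receptor partner Lgr5 (-1.34 ± 0.28, limma adjusted p = 0.010, and -1.08 ± 0.29, limma adjusted p = 0.0496, after scaling) fell as deposited, and of 9 periportal genes 0 passed as deposited (limma, 2 at an unadjusted p under 0.05, Hsd17b13 smallest at -0.67 ± 0.24, adjusted p = 0.094), while Arg1 passed after scaling (this enzyme splits the arginine that Slc7a2 carries, 0.65 ± 0.13, limma adjusted p = 0.012).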

How the data were processed

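Liver RNA was sequenced as 8 stranded libraries depleted of ribosomal RNA, per the labels' protocols. The submitters' processing notes name CASAVA 1.8, TopHat2 and the build hg19, while the table holds mouse gene IDs and mouse positions. The counting tool is not given in the sources used here. Per the file headers, the authors deposited FPKM for each library, with a denominator that is not stated, and columns called count, which are treated here as a signal scaled by 1 factor per library: each library has 1 step, and among its values below 500 steps 93.3% to 95.5% were whole numbers of steps (tolerance 0.01 of a step). The rest were not whole, so the columns were not taken as raw counts and no count test was run, and the inferred fragments are values divided by the step.

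FPKM were tested with limma 3.58.1 in R 4.3.3 (lmFit and eBayes with a trend on log2(FPKM + 1), 10221 genes, each reaching 0.5 FPKM in 4 or more libraries, treatment as the only term, two-sided). The filter and its gene set were kept for the other fits unless named. The alternatives used other pseudocounts (0.1, 0.5), a filter of 1 FPKM or no filter, median-ratio scaling, division by the share of fragments outside Lars2, the count columns, the replicate number as a block, and each library left out. The fit was tested on simulated data. Replicate numbers are shared between groups, but no label pairs the mice.

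The transporters, gene lists and tests were chosen with earlier results of these data known. The text names all 10 transporters, Fkbp5 and Lars2, and per list the genes that passed as deposited (the 1 of smallest p where 0 did), and for each transporter that passed the 2 genes most like it. Slc6a9, Slc1a2, Slc7a1, Slc7a11, Cps1, Glul, Gls2, Gpt2, Sdsl, Bckdha, Atf4, Atf5, Eif4ebp1, Cebpb, Nfat5, Arg1 and the endothelial markers (Lyve1, Kdr, Oit3) were named after their values were seen. Promoters are from RefSeq (GRCm38.p6), gene positions from GENCODE M21. The scaled fits without 1 library and the scaled count columns were added after seeing the data.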

Additional observations from a re-analysis of the deposited data

Results flagged for a closer look

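The FPKM of Slc7a5 in dexamethasone 4 was 2.57, far from the other 3 dexamethasone libraries (gap over range 0.915, above Dixon's 95% critical value for 4 samples). It was the 1 value that stood apart in this way among 20 groups of 4 examined, and chance gives about 1 in 20. Dexamethasone 4 held 3 inferred fragments of this gene.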

How the results depend on the processing

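Slc38a3 kept its direction and passed under all 26 alternatives (log2 fold change -1.34 to -0.66). Slc38a4 kept its direction under all 26 (-0.97 to -0.34) and passed under 9. Slc7a2 did not pass under any (-0.85 to -0.10). The number of lower transporters, 2 as reported, was 1 with a pseudocount of 0.1, with no filter, with median-ratio scaling and with the replicate block together with scaling, and 4 in the count columns, where Slc16a10 and Slc7a5 joined. It was 1 to 3 without 1 library, and 1 in each scaled fit without 1 library. The number of higher transporters, 0 as reported, was 1 in the scaled count columns and 0 to 1 in the scaled fits without 1 library. For other plasma membrane carriers 0 were higher as reported, and 1 was with median-ratio scaling, with division by the share outside Lars2, with the replicate block and in the scaled count columns, 2 with the block and scaling, and 1 to 2 in the scaled fits without 1 library. Over all genes 140 were higher and 802 lower; the higher count was 342 with median-ratio scaling, 237 with division by the share outside Lars2, 243 with the block and scaling, 544 in the scaled count columns and 107 to 170 without 1 library (220 to 307 scaled). The lower count was 487 with no filter, 313 with scaling, 415 with division by the Lars2 share, 1473 in the count columns, 190 with the block and scaling, 538 in the scaled count columns and 367 to 866 without 1 library (187 to 289 scaled); it was 367 without vehicle 2, 404 without vehicle 3, 423 without vehicle 1 and 459 without dexamethasone 3. With the replicate block alone 159 genes were higher and 956 lower, and Slc6a12 passed (-0.61, limma adjusted p = 0.047). Libraries of the same number had residual correlations of -0.015 to 0.021, none of 4 pairs above 0.1, and 1 of 8 libraries correlated best with its own number, so the numbers were not taken as pairs. Signs changed for genes that did not pass: Slc3a2 had 0.09 with scaling and with the block and scaling, 0.16 in the scaled count columns and -0.43 to 0.26 over the fits without 1 library, deposited and scaled; Slc38a2 had -0.04 without dexamethasone 2 (-0.04 to 0.67 over the fits without 1 library); Slc7a5 had 0.02 in the scaled fit without vehicle 4 and -0.98 to 0.02 over these fits; Slc43a1 had -0.10 in the count columns and -0.22, -0.11 and -0.12 without vehicle 2, vehicle 4 and dexamethasone 1, in a range of -0.22 to 0.65. The cause of these changes was not tested. Depth limits Slc7a5, Slc1a4 and Slc43a1, which had at most 39 inferred fragments in any library.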
